A study of Mus musculus with 8 samples.

Results

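The genes described are the 3 gastrokines Gkn1, Gkn2 and Gkn3 and the gastric trefoil factors Tff1 and Tff2, 5 of the 23276 genes that could be tested in mouse embryonic small intestine. Their probes were found by the gene name in the scanner files. They were singled out because their processed signals, and the software's marks for signal well above background, stood apart between control and Rfx6 knockout arrays. The size of that difference is therefore a description of how they were chosen, and no test of it is given.

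Total RNA from small intestine at stage E18.5 was hybridised to 8 single-colour arrays. The 4 control samples were wild type (Rfx6+/+), and the 4 samples labelled Rfx6 KO were homozygous for a loss of Rfx6 (Rfx6-/-). The deleted allele had been made by mating mice carrying a floxed Rfx6 allele to CMV-Cre mice, whose recombinase is active in nearly all tissues, and the homozygotes came from an intercross of heterozygotes, so the gene was missing from the whole embryo and not from the gut alone. The labels do not say whether the samples of a group came from separate litters, and p-values measure the spread between these samples.

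Gastrokines are small secreted proteins with a BRICHOS domain, made by the mucus-producing cells of the stomach lining. Trefoil factors are short secreted peptides held in a clover-leaf fold by disulphide bonds, and they act in mucus and in repair of the epithelial surface. In the adult stomach Tff1 is made together with the mucin Muc5ac by surface (pit) mucous cells and can be joined to Gkn2 in a heterodimer, whereas Tff2 is made together with the mucin Muc6 by mucous neck and gland cells. The intestine has a trefoil factor of its own, Tff3, made by goblet cells.

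The following probe stretches show what was measured. Each array probe is 60 bases long, and the first 30 bases are given, 5′ to 3′ along the transcript. Capitals in the Tff1 stretches mark the bases that both probes share.
Gkn1 probe: gtcagcctgactctctacatttatatgtct
Gkn2 probe: aattcacctttaagatggtccatcaactgg
Gkn3 probe: tctgaacctctacgtcagccagactggaca
Tff1 upstream probe: cacagTTCAACCCCTCAGACTTTTAGTCCT
Tff1 downstream probe: TTCAACCCCTCAGACTTTTAGTCCTcgaat
Tff2 probe: ttccacccacttccaaaccaagaatcggag
On mm9, the build of the files, the 3 gastrokine probes lie together on chromosome 6. Gkn1 is at 87295651 to 87295710 on the minus strand, Gkn2 at 87329285 to 87329344 on the plus strand and Gkn3 at 87333375 to 87333434 on the minus strand. The Tff2 probe spans 825 bases of chromosome 17, from 31279256 to 31280080 on the minus strand, so its 60 bases lie on more than 1 exon. The Tff1 probes are 5 bases apart and share 55 of their 60 bases, which makes them nearly the same measurement. The files place them on chromosome 5, at 143285577 to 143285641, while the RefSeq gene table puts Tff1 on chromosome 17 next to Tff2; they are called Tff1 here by the name the files give.

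For the gastrokines, the 250 bases before the transcription start were read from the RefSeq promoter table (GRCm38.p6), which held 3 of the 5 genes. They are shown because the 3 genes lie side by side and were all higher on the knockout arrays. Capitals mark matches, on either strand, to TATAAA (the TATA box), TGTTTNC (a core of forkhead sites), AGATAA and TGATAA (forms of the GATA site). None of the marked matches overlap.
Gkn1, chr6:87350916-87351165, minus strand: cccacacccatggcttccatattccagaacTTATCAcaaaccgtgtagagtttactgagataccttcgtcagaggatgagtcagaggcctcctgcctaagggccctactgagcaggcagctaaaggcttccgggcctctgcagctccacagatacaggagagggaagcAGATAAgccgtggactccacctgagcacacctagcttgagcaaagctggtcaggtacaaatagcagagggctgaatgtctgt
Gkn2, chr6:87373115-87373364, plus strand: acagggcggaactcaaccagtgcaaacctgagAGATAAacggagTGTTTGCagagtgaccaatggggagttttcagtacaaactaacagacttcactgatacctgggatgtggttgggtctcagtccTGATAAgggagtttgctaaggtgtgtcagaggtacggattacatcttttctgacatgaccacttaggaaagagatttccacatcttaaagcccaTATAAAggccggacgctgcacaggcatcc
Gkn3, chr6:87388936-87389185, minus strand: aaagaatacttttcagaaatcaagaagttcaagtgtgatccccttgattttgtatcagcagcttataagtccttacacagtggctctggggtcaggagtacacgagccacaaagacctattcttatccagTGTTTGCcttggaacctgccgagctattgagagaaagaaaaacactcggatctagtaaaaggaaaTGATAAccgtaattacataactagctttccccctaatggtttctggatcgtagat
The Gkn2 sequence alone held TATAAA, 29 to 24 bases before the start; 12.4% of the 32851 upstream sequences of this length in the table held it. TGTTTGC stood 206 to 200 bases before the start of Gkn2 and 120 to 114 bases before that of Gkn3, and 17.8% of all sequences held a TGTTTNC. Each of the 3 held at least 1 form of the GATA site, as did 16.6% of all sequences. In Gkn1 these were AGATAA at 82 to 77 bases and TTATCA, the reverse strand of TGATAA, at 220 to 215 bases. In Gkn2 AGATAA was at 218 to 213 bases and TGATAA at 123 to 118 bases, and in Gkn3 TGATAA was at 55 to 50 bases. GTTGCC, the core of RFX sites, found in 10.4% of all sequences, was in none of the 3 windows, which says only that these letters are not there. A match to such short letters is not evidence that a factor binds.

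All 8 arrays lay on 1 slide and were scanned once, and no gene spot was saturated. The share of probes well above background, on which the filter rests, was not even. In slide row 1 it was 62.8% on Control 1 and 63.7%, 64.5% and 67.1% on Rfx6 KO 2, 3 and 4. In row 2 it was 57.7%, 63.5% and 57.6% on Control 2, 3 and 4 and 57.4% on Rfx6 KO 1. The Rfx6 probe (chromosome 10, 51450116 to 51450175) was well above background on 8 of 8 arrays and differed by 0.38 log2 units (standard error 0.29; limma adjusted p 0.503), so it does not check the genotypes, and each group keeps the name its labels give. Of the 23276 genes, 543 were higher and 603 lower on the Rfx6 KO arrays (limma with Benjamini-Hochberg adjustment, adjusted p under 0.05). Without the array Control 1, Rfx6 KO 1 or Rfx6 KO 2 the count of higher genes was 355, 353 or 349. The median difference over all genes was -0.05. Slide rows were uneven between the groups, with Control 1 and Rfx6 KO 2, 3 and 4 in row 1 and the other 4 arrays in row 2.

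All 5 genes were higher on every Rfx6 KO array than on any control array. Among all genes tested, 5.4% had groups that did not overlap in this direction and 4.92% were called by limma, 2.33% as higher; since the members were picked on this contrast, nothing is read from their count. Levels below are log2 of the processed signal relative to the 75th percentile of the same array, so that 0 is the level of a fairly bright probe. A level may be set against the same probe on another array, not against another gene's probe. In whole tissue, more cells of a type and more RNA per cell cannot be told apart.

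**Figure D1:**
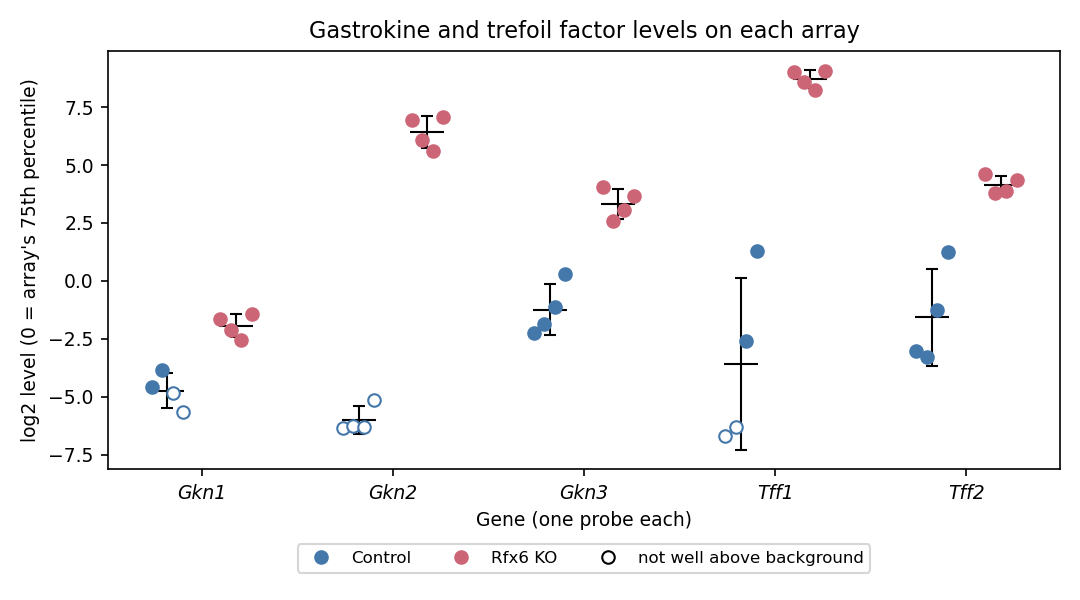
Log2 level of each gene on each array (points; 0 is the array's 75th percentile), with mean and SD of 4 arrays per group as black lines. Open points were not well above background; all Rfx6 KO points lie above all control points, and Control 4, the rightmost control point, is the highest control for Gkn3, Tff1 and Tff2.

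Gkn1, the gastrokine first described as a protein of the stomach antrum, had the smallest difference of the 5. Its processed signal was 27.31, 48.36, 22.63 and 13.57 on Control 1 to 4 and 239.1, 157.9, 121.2 and 235.6 on Rfx6 KO 1 to 4. The probe was well above background on Control 1 and 2 and on all 4 Rfx6 KO arrays. The level was -4.74 ± 0.75 (SD, n = 4) in controls and -1.94 ± 0.51 (SD, n = 4) in the knockout, a difference of 2.80 with a standard error of 0.38, or 6.99-fold. The lowest knockout value was 2.45-fold above the highest control value. This difference depended on how background was treated: it was 1.35 with normexp correction and 1.45 in the authors' series matrix values.

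Gkn2, the partner of Tff1 in the stomach's mucus, was at background in control intestine and bright in the knockout. Its signal was 8.149, 9.003, 8.038 and 19.97 on Control 1 to 4, where no array put it well above background. On Rfx6 KO 1 to 4 it was 92650, 46300, 34780 and 85760. On the processed signals, Gkn2 was at least 2084-fold higher in the knockout. This sets the knockout mean against a floor for each control array. The floor is the lowest signal that counted as well above background, or the probe's own where that was higher. The measured levels were -6.02 ± 0.60 (SD, n = 4) and 6.43 ± 0.71 (SD, n = 4). The size of the difference is bounded by the array's floor, which lay at signals of 21.32 to 37.57 on the control arrays. A signal above the floor was not always marked: Gkn1 at 22.63 on Control 3 was not. The bound, 11.0 log2 units, also depends on how background was treated. The difference was smaller, 9.44 with normexp correction and 9.72 in the authors' series matrix values.

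The Gkn2 probe is printed at 10 spots on each array, which gives a technical error that the other genes lack. On the Rfx6 KO arrays the coefficient of variation over the 10 spots was 3.64% to 4.45%, and the spots of Rfx6 KO 3, from 32023 to 36743, did not overlap those of Rfx6 KO 2, from 43292 to 47950. On Control 1 a single spot of 10, at 30.1, was well above background; on Control 2, 3 and 4 none was. On Control 4 the 10 spots ran from 13.0 to 28.8. For 5, 10, 3 and 0 of the spots on Control 1 to 4 the signal was a surrogate, which the software enters where a spot does not exceed its background.

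**Figure D2:**
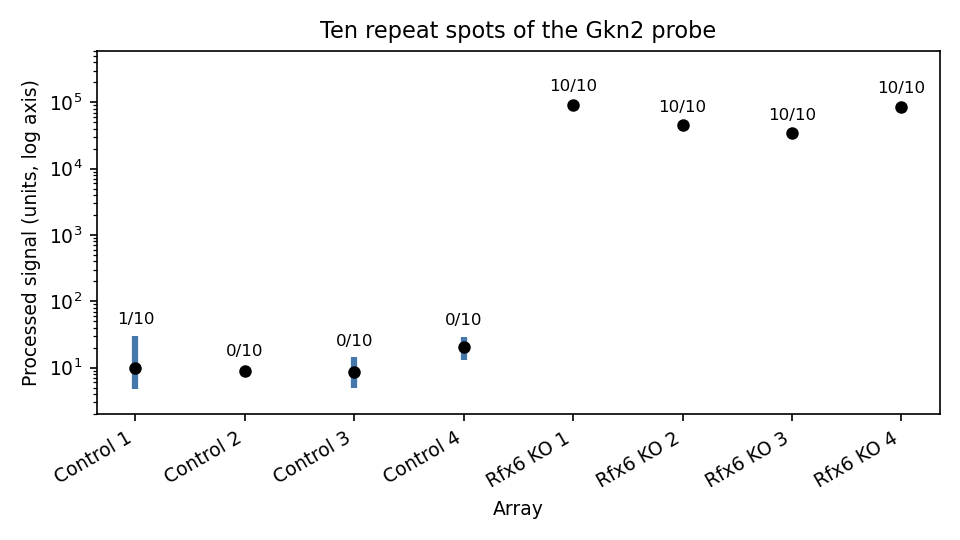
Processed signal of the 10 spots of the Gkn2 probe on each array, on a log axis: the point is the mean and the bar the lowest to highest spot, with the number of spots well above background printed above. Means are 8.70 to 20.4 on the control arrays and 34813 to 92723 on the Rfx6 KO arrays, where the bars are shorter than the points.

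Gkn3, the third gastrokine of the mouse cluster, was already measurable in control intestine. Its signal was 137.9, 191.9, 297.7 and 845.6 on Control 1 to 4 and 12170, 4136, 5931 and 7955 on Rfx6 KO 1 to 4, well above background on 8 of 8 arrays. The control arrays spread widely, with Control 4 above the other 3. The level was -1.24 ± 1.12 (SD, n = 4) in controls and 3.33 ± 0.64 (SD, n = 4) in the knockout. The difference was 4.57 with a standard error of 0.53, or 23.8-fold, and the groups were 4.95-fold apart at their nearest arrays.

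Tff1, the trefoil peptide of pit cells, was even among the knockout arrays and the least even of the 5 among controls. The upstream probe gave 6.415, 8.783, 105.8 and 1688 on Control 1 to 4, well above background on Control 3 and 4 only. On Rfx6 KO 1 to 4 it gave 380900, 261600, 218500 and 344400, which are within 1.77-fold of each other. The level was -3.58 ± 3.73 (SD, n = 4) in controls and 8.73 ± 0.39 (SD, n = 4) in the knockout. The difference of 12.31 (standard error 1.54) averages over control arrays that run from background to 1.28, so it is better read array by array. Against Control 4, the highest control, the knockout mean was 7.45 log2 units higher, and against Control 3 it was 11.33 higher. Without Control 4 the difference of the group means was 13.93.

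The downstream Tff1 probe gave 4.279, 7.462, 80.79 and 1579 on Control 1 to 4 and 292900, 249200, 196000 and 290000 on Rfx6 KO 1 to 4. Its difference was 12.42. The upstream probe was 0.07 to 0.58 log2 units above the downstream probe on the 8 arrays, and both gave the high reading on Control 4. Because the probes share most of their bases, they check the spots and not the identity of the transcript.

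Tff2, the spasmolytic peptide of neck and gland cells, passed the background mark on each of the 8 arrays. Its signal was 82.16, 72.36, 265.7 and 1679 on Control 1 to 4 and 17980, 9437, 10510 and 13080 on Rfx6 KO 1 to 4. As for Tff1, Control 3 and 4 were the higher controls, and no control reached the knockout range. The level was -1.57 ± 2.09 (SD, n = 4) in controls and 4.15 ± 0.39 (SD, n = 4) in the knockout, a difference of 5.73 with a standard error of 0.88, or 53.0-fold. Against Control 4 alone the knockout mean was 2.89 higher.

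All 5 genes passed the filter on dim probes, Gkn1, Gkn2 and Tff1 only through the Rfx6 KO arrays. For Gkn3, Tff1 and Tff2 Control 4 was the highest control. Gkn1 and Gkn2 were not well above background on that array, so it has no rank for them. Control 4 was the highest control for 19% of all genes tested and for 27.3% of the 543 genes called higher. For Gkn3 and Tff2 the order Control 4, then Control 3, then Control 1 and 2 was shared. What part this array plays in the differences can be seen from leaving it out: Gkn3 then differed by 5.08 and Tff2 by 6.67.

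Among the knockout arrays the genes shared a split, not a full order. Rfx6 KO 1 and 4 stood above Rfx6 KO 2 and 3 for 5 of 5 genes. The same split held for 13.3% of all genes tested and for 47.7% of the genes called higher, so it is shared with many genes beyond the gastrokines and trefoil factors. The highest and lowest knockout arrays were 2.18-fold apart for Gkn1, 2.77-fold for Gkn2, 2.74-fold for Gkn3, 1.77-fold for Tff1 and 1.77-fold for Tff2. Rfx6 KO 3 was the lowest for Gkn1, Gkn2 and Tff1, and Rfx6 KO 2 for Gkn3 and Tff2. Rfx6 KO 1 was the single knockout array in slide row 2, and the part of the row in this split was not tested. In values added after the data were seen, knockout minus control within row 1 (1 control array) was 2.56 for Gkn1, 5.36 for Gkn3 and 7.01 for Tff2, and at least 11.19 for Gkn2 and at least 13.57 for Tff1. Within row 2 (1 knockout array) it was 4.94 for Gkn3 and 5.70 for Tff2, and at least 2.70 for Gkn1, 11.45 for Gkn2 and 10.86 for Tff1. The limits put each control value at background at the lowest level counted as well above background on its array, or at its own where higher. As all knockout arrays lay above all controls, the direction within rows was fixed beforehand.

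**Figure D3:**
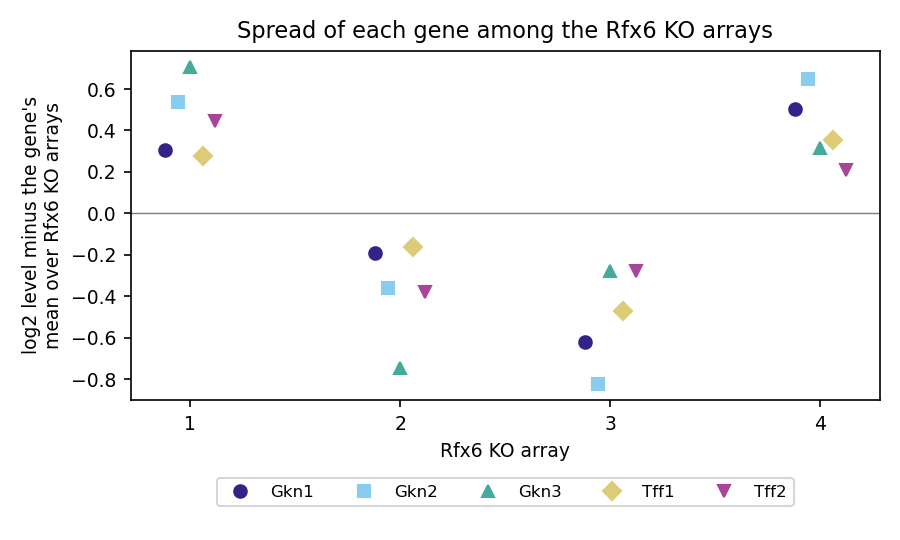
Log2 level of each gene on each Rfx6 KO array minus the gene's mean over the 4 Rfx6 KO arrays, 1 symbol per gene. All 5 genes lie above 0 on arrays 1 and 4 and below 0 on arrays 2 and 3.

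The genes around the members were examined next, from 500000 bases before the first to 500000 bases after the last probe of each cluster. In RefSeq the gastrokine genes follow each other without another gene between them, flanked by Antxr1 and Bmp10. Of 22 named entries around them 17 could be tested, 1 was called higher and 0 lower, and their differences ran from -0.37 to 0.94. Over all genes, 2.33% were called higher and 2.59% lower, so with this few entries nothing is read from the counts. Antxr1, an anthrax toxin receptor, differed by 0.23 (limma adjusted p 0.47) and Bmp10, a growth factor of the heart, by 0.04 (limma adjusted p 0.923). The called gene was Prokr1, a prokineticin receptor 195.7 kb beyond the Gkn3 probe, at -4.66 ± 0.42 in controls and -3.73 ± 0.22 in the knockout (SD, n = 4; limma adjusted p 0.0368). Prokr1 passed the background mark on 1 control array and 4 knockout arrays. No gene around the gastrokines was called without the replicate Control 1, 2 or 4 or Rfx6 KO 1, 2 or 3.

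Around Tff2, 17 of 24 named entries could be tested, with differences from -0.42 to 0.65. Of these, 0 were called in either direction, where 4.92% of all genes were, so nothing is read from the count. The nearest entry is Tff3, the goblet cell trefoil factor, at -16.9 kb from Tff2. Its level was 7.35 ± 0.14 (SD, n = 4) in controls and 7.27 ± 0.12 (SD, n = 4) in the knockout, a difference of -0.08 (standard error 0.10; limma adjusted p 0.671). Its 4 control values, 7.39, 7.29, 7.53 and 7.21, overlapped its knockout values, 7.15, 7.25, 7.25 and 7.44. Abcg1, a cholesterol transporter beyond Tff3, differed by 0.65 (limma adjusted p 0.14), and Tmprss3, a membrane protease on the side of Tff1, by 0.01 (limma adjusted p 0.958). Around the chromosome 5 position that the files give for the Tff1 probes, 21 of 29 entries could be tested. Of these, 0 were called higher and 1 lower, near the shares over all genes. This window was chosen after the data were seen.

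**Figure D4:**
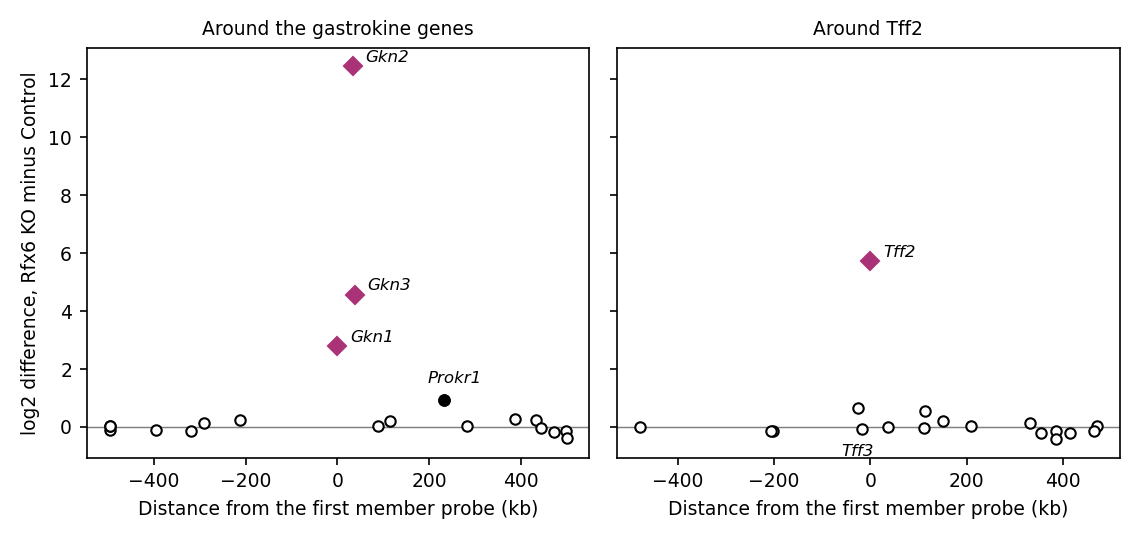
Log2 difference, Rfx6 KO minus Control, of genes within 500000 bases of the gastrokine probes (left) and of the Tff2 probe (right), against distance from the first member probe in kb; diamonds are Gkn1, Gkn2, Gkn3 and Tff2, circles other genes, filled where the limma adjusted p was under 0.05. Apart from Prokr1 at 0.94, the circles stay between -0.42 and 0.65.

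Genes of the cell types that make these peptides were read from lists. As the lists were chosen with results of these data known, their counts are not independent evidence of a direction. In the list of surface mucous cells, the stomach source of Tff1, Gkn1 and Gkn2, 8 of 11 genes rose and 0 fell, with a median difference of 5.77 (also with genes known only by a bound set to it) against -0.05 over all genes, of which 2.33% were called higher and 2.59% lower. Of these 8 genes, 7 were not well above background on every control array and passed the filter only through the knockout arrays. That route favours genes that are higher there, and the measured differences of these 7 rest in part on background signal. Anxa10, an annexin of gastric epithelium and the other called gene, was at -4.48, -3.91, -3.94 and -2.53 on Control 1 to 4 and at 4.00, 2.85, 2.81 and 3.84 on Rfx6 KO 1 to 4. It rose by 7.09 (standard error 0.43; limma adjusted p 4.8e-05), with the groups well apart. Ctse, the aspartic protease cathepsin E, rose by 6.61 (limma adjusted p 2.2e-04), and Psca, a surface antigen anchored to the membrane, by 5.77 (limma adjusted p 6.4e-04). Sult1c2, a sulphotransferase, rose by 7.12 (limma adjusted p 3.6e-05) and the membrane mucin Muc1 by 4.02 (limma adjusted p 4.2e-04).

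Mucl3, a mucin-like gene, was well above background on 1 control array only; its measured difference, mostly against background, was 10.06 (limma adjusted p 8.9e-05). The junction proteins Vsig1 and Cldn18 stayed within background on all 4 control arrays and were at least 68.4-fold and at least 9.72-fold higher (limma adjusted p 2.5e-05 and 6.0e-05). Muc5ac, the secreted mucin that Tff1 accompanies in the stomach, did not pass. It stood at -2.24, -1.67, -2.44 and -1.93 on Control 1 to 4 and at -1.07, -1.54, -1.68 and -1.56 on Rfx6 KO 1 to 4. Its difference was 0.61 (standard error 0.19; limma adjusted p 0.113), and Control 2 lay just above Rfx6 KO 3. The calpains of the stomach, Capn8 and Capn9, differed by 0.90 and 0.60 (limma adjusted p 0.0536 and 0.107).

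In the list of mucous neck and gland cells, the stomach source of Tff2 and, in the mouse, of Gkn3, 0 of 4 genes were called. The median difference was 0.04. Over all genes, 2.33% were called higher and 2.59% lower, so with 4 genes nothing is read from the count. Muc6, the mucin that Tff2 accompanies, scattered more than it differed. It was at -7.15, -2.11, -5.99 and -4.22 on Control 1 to 4, well above background on 2 of them, and at -2.61, -4.61, -2.14 and -4.42 on Rfx6 KO 1 to 4. The difference, 1.42 with a standard error of 1.04, did not pass (limma adjusted p 0.482), and the groups overlapped. A4gnt, which puts the gland type of sugar on mucins, differed by -0.04 (limma adjusted p 0.949). The water channel Aqp5 differed by -0.33 (limma adjusted p 0.416) and Glipr1 by 0.12 (limma adjusted p 0.759).

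Some genes of other stomach epithelial cells rose as well. Where 2.33% of all genes were called higher and 2.59% lower, 4 of 6 testable parietal cell genes rose and 0 fell. The acid pump's subunits were among them: Atp4a was at least 16.1-fold higher (limma adjusted p 1.4e-05) and Atp4b, above background on 1 control array only, had a measured difference of 7.41 (limma adjusted p 3.0e-05). Kcne2, a subunit of the potassium channel that serves the pump, was at least 4.70-fold higher (limma adjusted p 2.7e-06), and the water channel Aqp4 rose by 0.88 (limma adjusted p 0.008). Of 5 chief cell genes 3 rose: Cblif, which encodes intrinsic factor, was at least 92.8-fold higher (limma adjusted p 1.1e-06), the pepsinogen Pga5 rose by 5.93 (limma adjusted p 8.9e-07), and Bhlha15, a regulator of secretory cells, by 1.76 (limma adjusted p 0.00247). The other pepsinogen, Pgc, differed by 0.24 and Chia1 by 0.19 (limma adjusted p 0.335 and 0.746). Atp4a, Atp4b, Kcne2 and Cblif passed the filter only through the knockout arrays. That route favours genes that are higher there, so their p-values are no independent test of a direction. Aqp4, Pga5 and Bhlha15 were well above background on all 8 arrays.

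Together the surface mucous, neck, parietal and chief lists held 28 genes, of which 26 could be tested, 15 rose and 0 fell. Over all genes, 2.33% were called higher and 2.59% lower. Of the 15, 11 passed the filter only through the knockout arrays. The other 4, Anxa10, Aqp4, Bhlha15 and Pga5, were well above background on all 8 arrays. When the fit was repeated on probes well above background on all 8 arrays, 5 listed genes rose, so these include a gene outside the 15. Surface mucous genes had their highest mean level on Rfx6 KO 1, at 1.58, and their lowest on Rfx6 KO 3, at 0.51. Parietal genes were in another order, highest on Rfx6 KO 3, at 1.26, and lowest on Rfx6 KO 4, at 0.79. In the gastric endocrine list 2 of 4 genes fell and 0 rose. Ghrl (ghrelin) and Sst (somatostatin) fell, with differences of -6.85 and -7.33 (limma adjusted p 2.9e-09 and 9.2e-08). Both were well above background on all 4 control arrays, so the control samples held these transcripts. Sst was well above background on 1 knockout array only, so its size rests in part on background. Gast (gastrin) differed by -0.16 and Hdc by 0.63 (limma adjusted p 0.44 and 0.145).

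**Figure D5:**
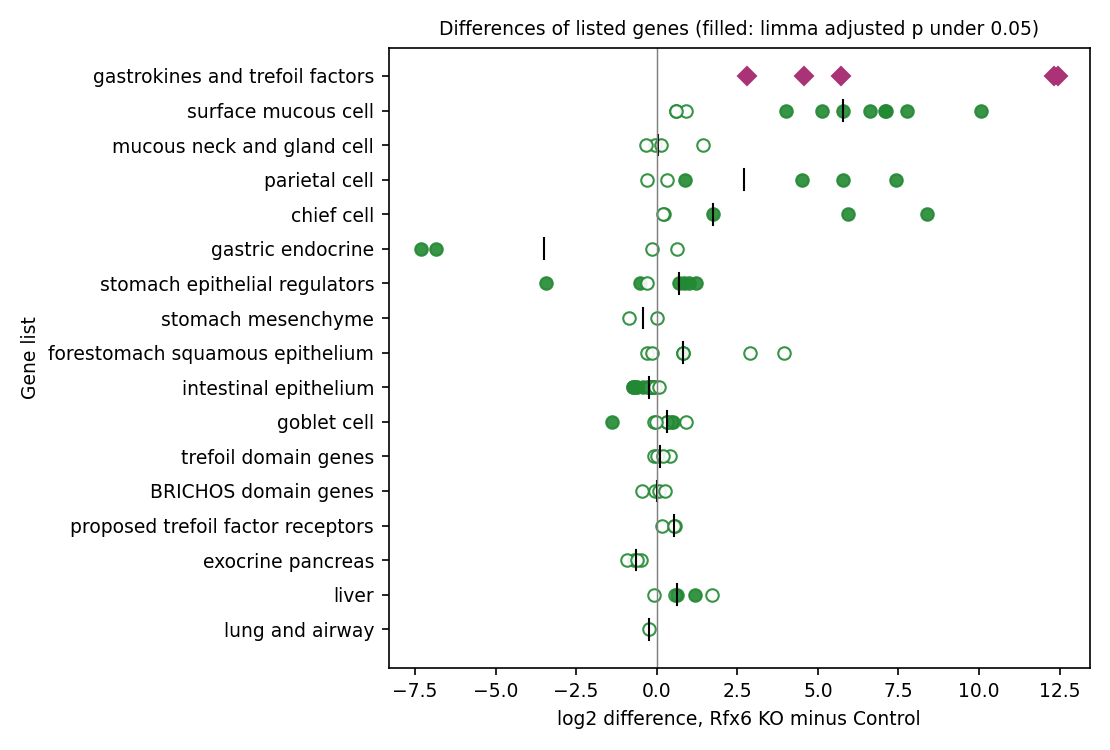
Log2 difference, Rfx6 KO minus Control, of each testable gene (circles, filled where the limma adjusted p was under 0.05) in each list, with the list's median as a black bar; diamonds are Gkn1, Gkn2, Gkn3, Tff1 and Tff2, which carry no test. Measured differences are drawn also where only a bound holds; 8 of 11 surface mucous genes and 0 of 4 mucous neck and gland genes are filled on the right.

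Markers of tissues other than intestinal epithelium were set beside these values. Of 4 genes of stomach mesenchyme, the tissue under the gastric lining, 2 were testable and 0 were called, where 4.92% of all genes were. Barx1, its defining regulator, was well above background on 0 of 8 arrays, and Six2 on 1 Rfx6 KO array only. Nkx3-2 differed by 0.00 (limma adjusted p 0.997) and Isl1 by -0.86 (limma adjusted p 0.0888). The mean level of the testable genes of this list ran from -3.48 to -2.87 on the control arrays and from -4.01 to -3.14 on the knockout arrays.

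Of 6 genes of the squamous forestomach, 1 rose, Krt13, by 0.81 (limma adjusted p 0.0435), where 2.33% of all genes were called higher. Krt5, a keratin of basal squamous cells, was at -2.92 to -2.62 on the control arrays and at 1.14, 2.12, -0.76 and -1.92 on Rfx6 KO 1 to 4 (difference 2.91; limma adjusted p 0.0661). Krt4 was well above background on 0 of 4 control arrays and stood at 0.26, 1.05, -2.69 and -3.95 on Rfx6 KO 1 to 4 (limma adjusted p 0.0633). These keratins were highest on Rfx6 KO 1 and 2, not on Rfx6 KO 1 and 4 as the gastrokines and trefoil factors were. In the rest of the list, Krt14 differed by -0.29, Trp63 by -0.14 and Ivl by 0.82 (limma adjusted p 0.815, 0.297 and 0.189). The mean level of the list was -1.73 to -1.27 on control arrays and 0.31, 0.61, -0.66 and -1.18 on Rfx6 KO 1 to 4. The part of squamous tissue in the results was not tested.

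Other organs beside the gut were looked for in the same way. Of 5 liver genes 2 rose, Ttr by 0.63 and Fgb by 1.20 (limma adjusted p 0.00334 and 0.00319), and of 4 testable genes of exocrine pancreas 0 were called. Over all genes, 2.33% were called higher and 2.59% lower. The liver list's mean level was 3.22 to 4.36 on the control and 4.14 to 4.62 on the knockout arrays, and that of the pancreas list 0.13 to 1.67 and -0.55 to 1.29. Of 4 lung and airway genes 1 could be tested and 0 were called; Bpifa1 was above background on 0 of 8 arrays. The part of these tissues in the results was not tested.

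The tissue itself carried the markers of small intestine in both groups. All 13 genes of intestinal epithelium were well above background on 8 of 8 arrays, with list means of 5.80 to 6.06 in controls and 5.56 to 5.79 in the knockout. Of these 13 genes 0 rose and 5 fell, where 2.33% of all genes were called higher and 2.59% lower. The regulators Cdx1 and Cdx2 differed by -0.17 and -0.24 (limma adjusted p 0.383 and 0.212). Those that fell were Hnf4g, the fatty acid binding proteins Fabp1 and Fabp2, lactase (Lct) and Apoa4, with differences of -0.75, -0.65, -0.42, -0.75 and -0.61 (limma adjusted p 0.0227, 0.00786, 0.0482, 0.0296 and 0.0222). In the goblet cell list, to which Tff3 belongs, 1 of 8 testable genes rose, the regulator Spdef by 0.50 (limma adjusted p 0.0455), and 1 fell, Zg16 with a difference of -1.38 (limma adjusted p 0.0068).

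Relatives by protein domain and proposed receptors were not called, where 4.92% of all genes were. With this few genes, nothing is read from the absence of calls. Of 4 testable genes other than Tff1 and Tff2 that encode a trefoil domain (Tff3, Sis, Mgam and Gaa), 0 were called, with a median difference of 0.11. Sis, the brush-border sucrase-isomaltase, came nearest at 0.42 (limma adjusted p 0.0947). Of 4 testable BRICHOS genes other than the gastrokines (Itm2a, Itm2b, Itm2c and Bricd5), 0 were called, with a median of 0.01. Of the proposed trefoil factor receptors, Cxcr4 differed by 0.55, Ackr3 by 0.17 and F2rl3 by 0.54 (limma adjusted p 0.215, 0.299 and 0.0722), and Lingo2 and Lingo3 did not pass the filter.

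Regulators of stomach epithelium went both ways. The forkhead genes Foxa1, Foxa2 and Foxq1 rose by 1.23, 1.00 and 0.85, and Klf4, a regulator of epithelial differentiation, by 0.68 (limma adjusted p 0.00161, 0.00457, 0.0122 and 0.0238). Nkx6-3, a homeobox gene of the stomach antrum, fell by 3.44, and Gata4 fell by 0.51 (limma adjusted p 0.00972 and 0.0396). The fall of Nkx6-3 was uneven, with -2.41 on Rfx6 KO 1 and -4.91, -5.02 and -5.03 on Rfx6 KO 2, 3 and 4. The latter values lie near the lowest levels counted as well above background there, -5.31 to -5.11. Gata6 differed by -0.30 (limma adjusted p 0.115). Sox2, the regulator that marks foregut epithelium, did not pass the filter, being well above background on 0 control and 3 Rfx6 KO arrays.

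The genes nearest to each member over the 8 arrays were found by the root mean square difference of profiles centred on their means, which compares size as well as shape. This is a description, and the control arrays at background add to it. For Gkn1 the nearest named genes were the synaptotagmin Syt8, at 0.39, and the calcineurin-like Tesc, at 0.42 log2 units; a probe with no gene name came before them, at 0.33. For Gkn2 they were Bpifb1, at 1.33, Mucl3, at 1.34, and Cblif, at 2.13. The same 3 genes came first for Tff1, at 1.97, 2.17 and 2.96. Bpifb1, a secreted protein of airway and upper gut surfaces, carries the name U46068 in the files; it was at -4.07 ± 1.29 (SD, n = 4) in controls and 5.99 ± 0.34 (SD, n = 4) in the knockout.

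For Gkn3 the nearest were Duoxa2, a maturation factor of a peroxide-making oxidase, at 0.44, 2210407C18Rik at 0.53 and the anion transporter Slc26a9 at 0.59. For Tff2 they were 2210407C18Rik at 0.75, Psca at 0.83 and Fgf15, an ileal hormone of bile acid control, at 0.87. Among the members themselves the closest pair was Gkn3 and Tff2, at 0.87, and the farthest Gkn1 and Tff1, at 5.47. Gkn2 and Tff1 were 1.99 apart.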

How the data were processed

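The data are 8 single-colour Agilent arrays of total RNA, labelled from 100 ng per the labels' protocols. The deposited intensity of each spot is the processed signal, which the authors' Feature Extraction 10.10.1.1 had corrected for background, per the file headers; the deposited series matrix intensity follows the uncorrected spot medians. Of 62976 spots per array, 3671 control spots and outlier spots were left out. Spots of a probe were averaged as log2 values and the array's 75th percentile was subtracted. Of 55681 probes, 31662 were kept, those well above background throughout 1 group of 4 or both, and the brightest probe stood for a gene. Names came from the files, updated through a RefSeq table (26320 current symbols, 2903 by accession, 474 by synonym, 25984 as in the files); coordinates are mm9 as deposited. Groups were compared with limma 3.58.1 in R 4.3.3 (lmFit and eBayes, two-sided, Benjamini-Hochberg over 23276 genes). A group with no array well above background has a bound only, which holds for the processed signal and its floor, not for other background corrections. Simulated data were used to test the fit. The number of arrays limits the precision.

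The members and the gene lists were chosen with earlier results of these data known. Named genes are the members, the listed genes, genes within 500000 bases, and the 3 most similar profiles per member; not all are printed. Alternatives were normexp with an offset of 50, quantile normalization, series matrix values, no filter, a filter on all 8 arrays, averaging the probes of a gene, slide row or replicate number as a block, and leaving out each array. Replicate numbers come from the labels and did not pair the samples: deviations of same-numbered samples correlated, across genes, by -0.07, -0.17, 0.07 and -0.41.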

Additional observations from a re-analysis of the deposited data

Results flagged for a closer look

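Single arrays far from the other 3 of their group were found in 6 of 108 groups of 4 values examined (5.56%), where chance gives about 1 in 20. Gkn2 was at -5.13 on Control 4 and at -6.34 to -6.28 on the other controls, and it reached the background mark on none of them, so these values have no order. Atp4a was at -5.95 on Control 3 and at -6.57 to -6.48 on the other controls, also below that mark on all 4. The mean of the liver list was 4.36 on Control 1 and 3.22 to 3.33 on the other controls. Sst was at 1.75 on Control 2 and at 1.98 to 2.03 on the other controls. Nkx6-3 was at -2.41 on Rfx6 KO 1 and at -5.03 to -4.91 on the other knockout arrays. Gata4 was at 0.96 on Rfx6 KO 2 and at 1.33 to 1.37 on the other knockout arrays.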

How the results depend on the processing

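The direction of all 5 members' differences was the same under every alternative that gave a value. As all knockout arrays lay above all controls, settings that keep these levels, such as leaving out an array, could not reverse it. Differences for Gkn3 ran from 4.27 to 5.15, for Tff1 from 10.46 to 13.44 and for Tff2 from 5.15 to 6.36. Gkn1 moved from 2.80 to 1.35 with normexp and 1.45 in the series matrix, and Gkn2 from 12.45 to 9.44 and 9.72; both settings leave or add a signal floor under the dim control spots. With the filter on all 8 arrays, Gkn1, Gkn2 and Tff1 gave no value, and the count of listed stomach epithelium genes that rose was 5 in place of 15. Only 4 of those 15 were well above background on all 8 arrays. Without the filter 298 genes were higher and 202 lower, and with the replicate block 268 and 148; the replicate numbers do not pair the samples. Genes called beside the loci were 2 with quantile normalization, and 0 without the filter, with the filter on all 8 arrays and with the replicate block. Leaving out 1 array gave 2.49 to 3.10 for Gkn1, 12.23 to 12.74 for Gkn2, 4.23 to 5.08 for Gkn3, 11.28 to 13.93 for Tff1, 5.16 to 6.67 for Tff2, 349 to 516 higher genes, 233 to 592 lower genes, 15 to 16 listed genes and 0 to 2 genes beside the loci. Lower genes were 243 without Control 1, 313 without Control 3, 362 without Control 4, 245 without Rfx6 KO 1 and 233 without Rfx6 KO 2. The median over all genes moved between -0.10 and -0.002 across settings. Signals at background on control arrays limit Gkn1, Gkn2 and Tff1.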
